A study of Mus musculus with 11 samples.

Results

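The outer dense fiber genes carry the Odf symbols, and 8 of them (Odf1, Odf2, Odf2l, Odf3, Odf3b, Odf3l1, Odf3l2 and Odf4) were read from the 22259 genes listed for mouse testis RNA. They were chosen by symbol, each matched to 1 Ensembl gene. RNA had been sequenced from 3 Ccer1-/- (KO) and 3 Ccer1+/+ (WT) untreated adult testes. Ccer1 encodes a nuclear protein of spermatids, and the KO mice carry frameshift deletions made in its coding sequence by CRISPR-Cas9, inherited through the germ line. The study took a single deletion line on for its analysis of pathological changes. Which of its lines gave these testes is not stated in the sources used here. The libraries hold whole testis, so fewer cells of a type and less RNA per cell cannot be told apart. Totals ran from 15970289 to 16552947 counts in KO libraries and from 16259579 to 19621550 in WT libraries. The study describes 3 independent samples of each genotype, while the labels do not say whether replicates came from separate animals. The p-values measure the spread between these samples.

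Outer dense fibers are the stiff rods that run along the microtubule doublets of the sperm tail and give it its mechanical strength. Their proteins are laid down late in spermatid development, when the tail grows and the nucleus condenses. ODF1 is one of their main proteins, and ODF2 is a second that also sits on the appendages of the mother centriole. ODF3 and its relatives ODF3B, ODF3L1 and ODF3L2, now also named Cimap1 proteins, share short STPGR repeats, and ODF4 is a separate tail protein. ODF2L resembles ODF2 and in human cells is a protein of the centriole region that restrains cilium formation.

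Among the libraries, WT replicate 1 stood apart from the other WT libraries. Its log2 CPM (CPM, a gene's share of its library's counts after TMM scaling) correlated at 0.984 to 0.990 with the KO libraries across genes and at 0.965 and 0.970 with WT replicates 2 and 3. The first principal component, with 44.65% of the variance, set WT replicates 2 and 3 apart from the other libraries. Summed markers of peritubular myoid cells, macrophages, endothelial cells, Sertoli cells and spermatogonia were lower in replicate 3 of both genotypes than in the other libraries. Not every single marker followed its sum. The 5 myoid markers summed to 33.45 CPM in KO replicate 3 and 33.49 CPM in WT replicate 3, against 84.9 to 135.7 CPM elsewhere. Macrophage markers summed to 18.27 and 14.45 CPM in these 2 libraries, against 51.23 to 62.18 CPM elsewhere. Endothelial markers summed to 6.132 and 7.102 CPM, against 16.07 to 17.97 CPM elsewhere. Sertoli cell markers summed to 861.7 and 907.8 CPM, against 1116 to 1351 CPM elsewhere. Spermatogonia markers summed to 103.9 and 110.3 CPM, against 123 to 140.2 CPM elsewhere. Epididymal markers summed to at most 0.243 CPM in every library. Ccer1 itself stood at 82.1, 93.0 and 88.3 CPM in KO testes, against 438.6, 609.5 and 528.9 CPM in WT testes, with a log2 fold change of -2.58 (SE 0.15, edgeR quasi-likelihood adjusted p = 0.000736).

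Odf1 and Odf2 were among the most abundant transcripts of the testis. Together they held 92.2% to 93.2% of the counts of all 8 genes in each library, and the 8 genes held 0.666% to 0.731% of all counts. Odf2 was the gene with the largest count in KO replicate 2 and stood between first and sixth in every library, while Odf1 stood between 26th and 36th. Per kilobase of the longest coding transcript, however, the order ran the other way, with Odf1 at 1480 ± 71.6 CPM per kb in KO and 1701 ± 379 in WT testes (SD, n = 3 each). Odf2 had 1202 ± 19.2 CPM per kb in KO and 1210 ± 93.0 in WT testes (SD, n = 3 each). This order held in all 6 libraries, but the ranges overlapped across libraries, with Odf1 at 1300 CPM per kb in WT replicate 1 and Odf2 at 1318 in WT replicate 3. Odf2 has 16 annotated coding transcripts of 403 to 3959 bases, and with the shortest of them its level would be 11850 CPM per kb on average.

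**Figure D1:**
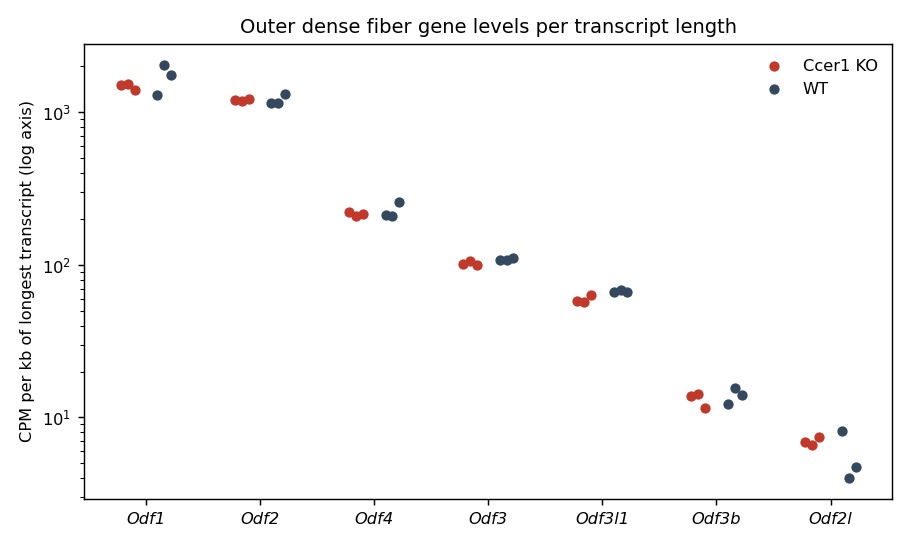
Level of each outer dense fiber gene per kilobase of its longest coding transcript (CPM per kb, log axis), with 3 Ccer1 KO points left of 3 WT points; Odf3l2 is left out because its counts were 0 or 1. The order from Odf1 down to Odf2l held in all 6 libraries.

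The other 5 tested genes lay lower on the same per-kb scale, and their order was the same in all 6 libraries with no overlap of ranges between neighbours. Odf4 averaged 215.5 ± 6.38 CPM per kb in KO and 226.4 ± 28.9 in WT testes. Odf3 averaged 102.4 ± 3.08 CPM per kb in KO and 108.2 ± 1.70 in WT testes. Odf3l1 averaged 59.55 ± 3.07 CPM per kb in KO and 67.07 ± 0.891 in WT testes. These values fall in the middle of the gene family, well below Odf1 and Odf2 and above the rarest members. Odf3b averaged 13.2 ± 1.47 CPM per kb in KO and 13.9 ± 1.70 in WT testes. Odf2l averaged 6.98 ± 0.422 CPM per kb in KO and 5.65 ± 2.24 in WT testes (SD, n = 3 each throughout). Odf3l2 (chr10:79639526-79645738 in GRCm38) had 0 counts in every KO library, against 1, 1 and 0 counts in WT libraries. A count of 0 allows up to 3 counts, which is 0.182 to 0.184 CPM in the KO libraries, so no difference in Odf3l2 was detectable at this depth. No run of 50 bases of any member's annotated transcripts occurred in a coding transcript of another gene.

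The regions around the transcription start sites differed among members in CG content, and 3 are shown as examples of a CG-rich window and of CG-poor ones. RefSeq (GRCm38.p6) gave windows for 6 of the 8 genes, each of 300 bases from 250 before to 50 after a start. In the sequences, capitals mark each CG pair. The Odf2 window is at chr2:29889470-29889769 on the plus strand, that of Odf3 at chr7:140847666-140847965 on the plus strand and that of Odf4 at chr11:68927032-68927331 on the minus strand.
Odf2: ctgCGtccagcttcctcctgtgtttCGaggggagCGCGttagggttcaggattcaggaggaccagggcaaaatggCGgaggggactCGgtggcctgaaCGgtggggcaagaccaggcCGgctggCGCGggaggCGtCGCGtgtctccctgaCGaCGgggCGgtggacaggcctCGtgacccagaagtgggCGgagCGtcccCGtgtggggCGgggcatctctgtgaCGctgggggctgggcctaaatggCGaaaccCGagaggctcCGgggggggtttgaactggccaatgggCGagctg
Odf3: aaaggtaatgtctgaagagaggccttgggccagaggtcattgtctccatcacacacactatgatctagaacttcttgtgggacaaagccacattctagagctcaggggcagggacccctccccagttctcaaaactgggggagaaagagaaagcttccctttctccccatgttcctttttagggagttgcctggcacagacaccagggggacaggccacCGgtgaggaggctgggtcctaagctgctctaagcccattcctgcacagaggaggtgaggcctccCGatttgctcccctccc
Odf4: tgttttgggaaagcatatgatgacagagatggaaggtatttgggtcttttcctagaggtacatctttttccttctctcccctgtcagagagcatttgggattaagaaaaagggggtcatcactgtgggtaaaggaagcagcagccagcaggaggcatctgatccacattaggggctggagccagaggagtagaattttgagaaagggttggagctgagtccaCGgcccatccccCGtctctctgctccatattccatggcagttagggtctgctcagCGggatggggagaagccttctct
The 4 windows of Odf2 held 26 to 43 CG pairs and the 2 of Odf2l held 25 and 27, against a median of 7 over all 32851 windows. Odf3 had 2, Odf4 had 3, Odf3b had 12, and the 2 windows of Odf3l1 had 2 and 8. Odf2, with high levels, and Odf2l, with the lowest of the tested genes, thus both had CG-rich windows. The letters TGACG (either strand) occurred in the first 2 windows of Odf2 and in no other member's window, against 20.8% of all windows. TGACGTCA and TATAAA occurred in no member's window, against 1.79% and 13.6% of all windows (TGACG lies within TGACGTCA, and both strands were searched). CCAAT, on either strand, occurred in windows of Odf2, Odf2l and Odf3l1, against 37.4% of all windows.

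The comparison of KO with WT testes asked whether transcripts of the tail's dense fibers change when Ccer1 is lost. None of the 7 members tested passed the threshold of an adjusted p under 0.05 (edgeR's quasi-likelihood test with Benjamini-Hochberg adjustment over 15139 genes), and 0.00661% of all genes tested passed it, Ccer1 alone. At an unadjusted p under 0.05 none of the 7 passed, against 2.89% of all genes tested. DESeq2 called none of them either, against 0.033% of all genes. Of the 7 log2 fold changes, 6 were negative and 1 positive, with a median of -0.08, against 0.04 over all genes tested.

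Odf1 (chr15:38219203-38226735 in GRCm38), whose loss in mice detaches sperm heads, had 1662, 1699 and 1547 CPM in KO testes, against 1436, 2269 and 1934 CPM in WT testes. The groups overlapped because WT replicate 1 lay below all KO libraries while WT replicates 2 and 3 lay above them. The log2 fold change was -0.20 (SE 0.16, adjusted p = 0.786), with a 95% interval of -0.57 to 0.17. Odf2 (chr2:29889014-29931746), a main fiber protein and centriolar scaffold, had 4799, 4673 and 4809 CPM in KO testes, against 4581, 4576 and 5217 CPM in WT testes. WT replicates 1 and 2 lay below the KO libraries and WT replicate 3 above them. Its log2 fold change was -0.01 (SE 0.11, adjusted p = 0.982), and the interval of -0.25 to 0.23 gives the range of differences that these libraries leave possible.

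Odf4 (chr11:68921835-68927081), which encodes a tail protein found in testis, had 249.9, 235.8 and 245.5 CPM in KO testes, against 238.5, 235.8 and 293.8 CPM in WT testes. The groups overlapped, and WT replicate 3 was the highest library. The log2 fold change was -0.07 (SE 0.12, adjusted p = 0.879).

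Odf3, Odf3l1 and Odf3b did not pass the test, and each had a negative estimate. Odf3 (chr7:140847916-140850925) had 151.9, 159.9 and 151.7 CPM in KO testes, against 162.1, 161.6 and 166.3 CPM in WT testes. All 3 KO libraries lay below all WT libraries, by a margin of 159.9 against 161.6 CPM at the closest. This separation depended on TMM scaling. Before scaling, KO replicate 2 had the larger share, with 2633 of 16134142 counts, against 2615 of 16259579 in WT replicate 2. The log2 fold change was -0.08 (SE 0.11, adjusted p = 0.834). Odf3l1 (chr9:56848656-56860510) had 62.77, 62.05 and 68.12 CPM in KO testes, against 71.83, 73.55 and 71.94 CPM in WT testes. These groups did not overlap either. Odf3l1 had a log2 fold change of -0.17 (SE 0.12, adjusted p = 0.786, 95% interval -0.44 to 0.10). In TMM-scaled CPM, Odf3 and Odf3l1 were the 2 of 7 members whose groups did not overlap, and 8.34% of all genes tested had no overlap. Odf3b (chr15:89377447-89379254), with counts of 197 to 262, had 14.32, 14.81 and 11.96 CPM in KO testes, against 12.67, 16.19 and 14.57 CPM in WT testes. The groups overlapped, and the log2 fold change was -0.08 (SE 0.18, adjusted p = 0.906).

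Odf2l (chr3:145118569-145153915), a centriole-region gene, was the member with a positive estimate. It had 17.77, 17.12 and 19.25 CPM in KO testes, against 21.20, 10.32 and 12.31 CPM in WT testes. WT replicate 1 was the highest library of all and WT replicates 2 and 3 the lowest. The log2 fold change was 0.30 (SE 0.26, adjusted p = 0.788), with a 95% interval of -0.30 to 0.90.

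**Figure D2:**
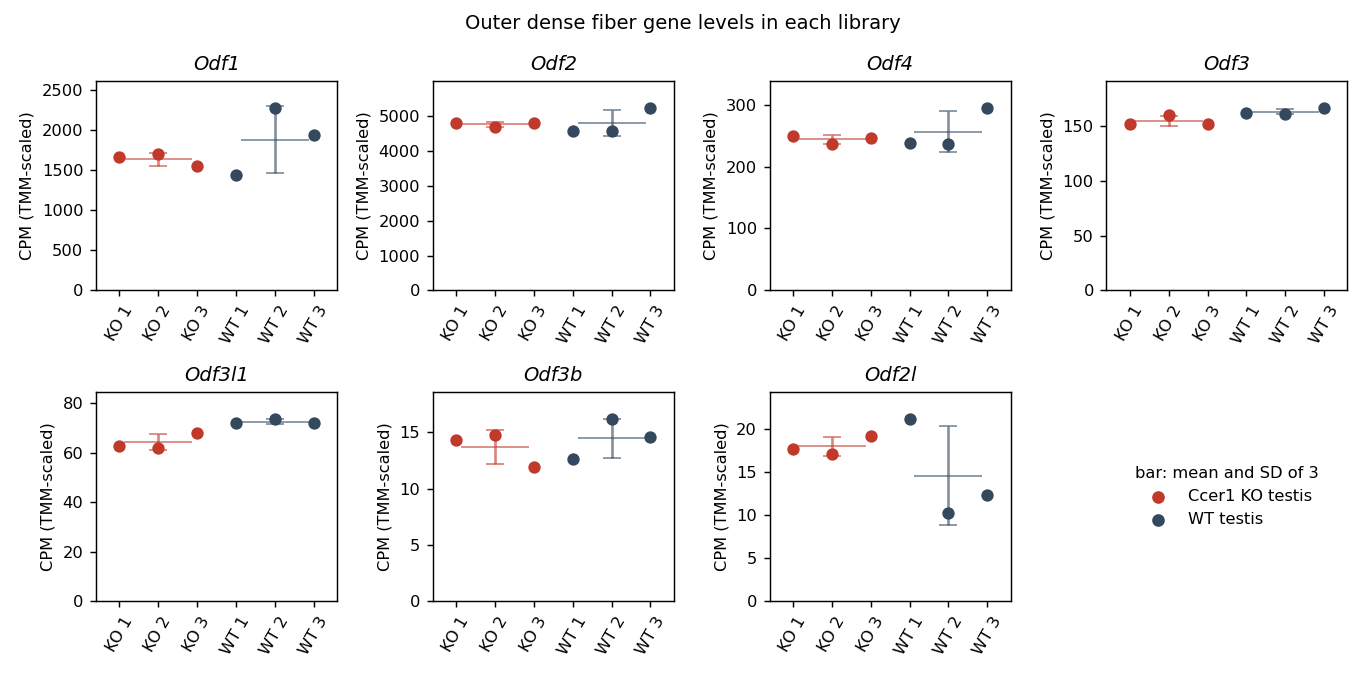
TMM-scaled CPM of the 7 tested outer dense fiber genes in each library, Ccer1 KO left of WT, with the mean and SD of 3 libraries. Odf3 and Odf3l1 show no overlap between genotypes, while Odf1 and Odf2l show WT replicate 1 on the opposite side of the KO libraries from WT replicates 2 and 3.

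The spread between libraries differed among members. The coefficient of variation of Odf1 was 4.84% in KO and 22.3% in WT libraries, while counting error alone gives 0.611% and 0.556%. For Odf2l it was 6.04% in KO and 39.7% in WT libraries, against counting errors of 5.81% and 6.15%. For Odf3 it was 3.01% in KO and 1.57% in WT libraries, against counting errors of 1.99% and 1.87%. WT replicate 1 lay below the KO range for Odf1 and Odf2 and above it for Odf3, Odf3l1 and Odf2l. The share of all genes with such a place was not computed. Its log2 CPM differed from the mean of the other WT libraries by -0.54 for Odf1 and 0.91 for Odf2l. For Odf2 the difference was -0.09. For Odf3 and Odf3l1 it was -0.02 each, so there WT replicate 1 lay close to the other WT libraries.

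Without WT replicate 1, 2 of the 7 members passed the threshold, against 21.7% of all genes tested. Odf1 then had a log2 fold change of -0.43 (SE 0.085, edgeR quasi-likelihood adjusted p = 0.0121), so that 1 of 7 fell against 12.5% of all genes. Odf2l had a log2 fold change of 0.60 (SE 0.15, adjusted p = 0.0253), so that 1 of 7 rose against 9.21% of all genes. The other 5 did not pass, with Odf3l1 nearest at -0.25 (adjusted p = 0.0847). Both calls rest on leaving out a single library. Leaving out WT replicate 2 instead gave -0.10 for Odf1 and 0.06 for Odf2l, and leaving out WT replicate 3 gave -0.23 and 0.15, none of which passed. The summed level of the 12 mitochondrially encoded genes matched moved with this split, at 10060, 9269 and 10640 CPM in KO libraries, against 10590, 5277 and 5031 CPM in WT libraries, and 10 of the 12 rose without WT replicate 1. Of the 10 spermatocyte markers, 5 rose and 3 fell without WT replicate 1, and their sum was 2119, 2138 and 2255 CPM in KO libraries, against 2232, 2700 and 2742 CPM in WT libraries. Sycp3, a protein of the synaptonemal complex, had 52.7, 51.2 and 71.2 CPM in KO libraries, against 71.3, 20.5 and 26.2 CPM in WT libraries. WT replicates 2 and 3 were thus its lowest, as for Odf2l. The 3 markers that fell, Hspa2, Piwil1 and Ovol2, went the other way. Hspa2 had 1227, 1269 and 1264 CPM in KO libraries, against 1249, 1800 and 1780 CPM in WT libraries. The part of these genes in the calls on Odf1 and Odf2l was not tested. With WT replicate 1 alone against the KO libraries, an alternative chosen after the data were seen, the estimates were 0.17 for Odf1 and -0.25 for Odf2l.

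**Figure D3:**
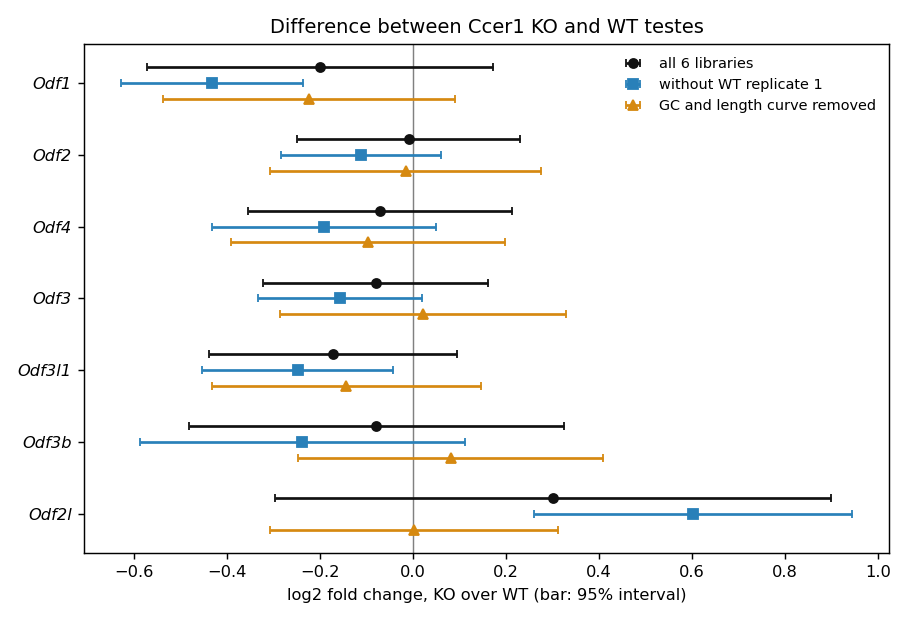
Log2 fold change of each tested outer dense fiber gene, KO over WT (bars, 95% intervals), with all 6 libraries, without WT replicate 1, and with a curve on GC content and transcript length removed. Only Odf1, Odf2l and Odf3l1 have an interval off 0, and only without WT replicate 1.

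GC content of the transcript moved with the split among WT libraries. Over 14460 genes tested, the difference of WT replicate 1 from the mean of WT replicates 2 and 3 had a Spearman rho of -0.684 with GC content, a description across genes that are not independent. Odf2l, at 40.6% GC, had the lowest GC content of the members, and the median difference of genes with 40 to 43% GC was 0.66. Odf1, at 51.4% GC, differed by -0.54, where genes with 49 to 52% GC had a median of 0.03. Odf3, at 57.4% GC, differed by -0.02, where genes with 55 to 58% GC had a median of -0.34. With a curve on GC content and length removed, the log2 fold change was 0.00 for Odf2l (95% interval -0.31 to 0.31) and -0.22 for Odf1 (-0.54 to 0.09).

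**Figure D4:**
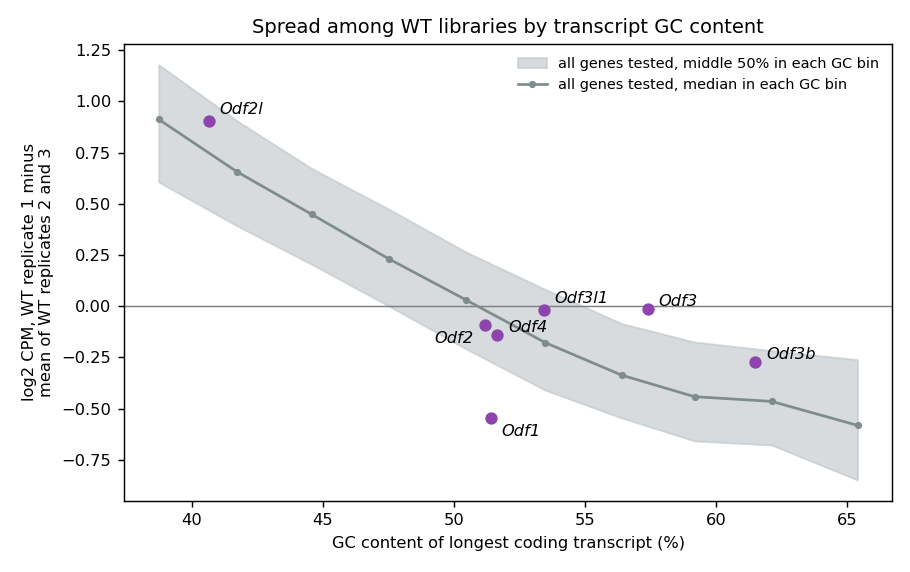
Difference in log2 CPM between WT replicate 1 and the mean of WT replicates 2 and 3, against GC content of the longest coding transcript (%), for the tested outer dense fiber genes (points) and for all genes tested (median and middle 50% in GC bins). Odf2l lies at the upper edge of the middle 50% of its bin, Odf3 above that of its bin and Odf1 below that of its bin.

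Ratios within a library do not depend on scaling between libraries. The log2 ratio of Odf2 to Odf1 counts was 1.53, 1.46 and 1.64 in KO libraries, against 1.67, 1.01 and 1.43 in WT libraries. Its difference of 0.17 was within the WT spread (two-sided exact permutation p = 0.60). The log2 ratio of Odf3 to Odf1 averaged -3.40 ± 0.051 in KO and -3.50 ± 0.33 in WT libraries (SD, n = 3 each, exact permutation p = 0.70). That of Odf4 to Odf1 averaged -2.75 ± 0.097 in KO and -2.86 ± 0.36 in WT libraries (SD, n = 3 each, exact permutation p = 0.90). The smallest p that 3 against 3 allows is 0.10, and all 3 adjusted values were 0.90. The KO libraries spread less than the WT libraries in each ratio, with WT replicate 2 the lowest and WT replicate 1 the highest. All 3 ratios divide by Odf1, so their shared spread and order are not separate results. The coefficient of variation of Odf1 itself was 22.3% in WT and 4.84% in KO libraries.

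Other genes of the tail were read beside the fiber genes, and none passed edgeR's adjusted threshold with all 6 libraries. Of 8 partners of the fibers, 6 had negative and 2 positive estimates, with a median of -0.11. Tekt4, a tektin of the tail, had 379.9, 412.7 and 400.5 CPM in KO testes, against 375.6, 548.6 and 564.5 CPM in WT testes. Tssk4, a kinase that acts on ODF2, had 121.9, 117.5 and 115.8 CPM in KO testes, against 128.7, 136.0 and 149.4 CPM in WT testes. Tekt4 overlapped between genotypes through WT replicate 1, and Tssk4 did not overlap. Klc3 encodes a kinesin light chain that in rat binds the fibers. It had 41.4, 35.3 and 36.9 CPM in KO testes, against 31.5, 53.3 and 54.2 CPM in WT testes. Without WT replicate 1, 4 of the 8 partners fell (Tekt4, Tssk4, Klc3 and Spag4), against the 12.5% of all genes given above.

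The 11 head-tail coupling genes had a median log2 fold change of 0.13, with 7 positive and 4 negative estimates. Spatc1l, a protein of the sperm neck, had an estimate of -0.33, Sun5, a nuclear envelope anchor of the tail, -0.26, and Hook1, a protein of the manchette, 0.35. Of 14 genes for centriole appendages, where ODF2 sits, 13 were tested, with a median of -0.03. Their smallest p-values belonged to Dctn1 (-0.30), Fbf1 (-0.30) and Cep170 (0.28). The 9 fibrous sheath genes had a median of 0.13. Akap4, the main protein of the sheath, had 2844, 2735 and 2639 CPM in KO testes, against 2524, 1982 and 2187 CPM in WT testes. Its groups did not overlap, with an estimate of 0.30 that did not pass the threshold (SE 0.12, adjusted p = 0.786). Spa17 had an estimate of 0.34 and Fscb of 0.45. The 7 mitochondrial sheath genes had a median of 0.03, led by Gk2 (0.18), Gpx4 (-0.20) and Tbc1d21 (-0.14). Of the 5 other genes with STPGR repeats tested, the median was 0.08, led by Stpg4 (0.33), Stpg3 (-0.19) and Stpg2 (0.22). Without WT replicate 1, 4 head-tail coupling genes rose and 1 fell, 3 appendage genes rose and 2 fell, 4 fibrous sheath genes rose and 3 fell, 2 mitochondrial sheath genes fell, and no STPGR-repeat gene passed. Over all genes in that fit, 9.21% rose and 12.5% fell.

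The genes for transition proteins and protamines, which pack the spermatid nucleus while the tail is built, had larger differences. All 4 had no overlap between genotypes, against 8.34% of all genes tested. Tnp1 had 677.1, 705.4 and 533.4 CPM in KO testes, against 1266, 2763 and 2338 CPM in WT testes, and Prm2 had 2973, 2993 and 2848 CPM in KO testes, against 3826, 5956 and 5954 CPM in WT testes. Tnp2 had a log2 fold change of -0.73 and Prm1 of -0.90. Their median was -0.87, beside -0.08 for the fiber genes, and with all 6 libraries none of the 4 passed the adjusted threshold of edgeR's quasi-likelihood test. DESeq2 called 3 of them lower on the same 6 libraries, against 0.033% of all genes called in either direction. Its adjusted p was 1.5e-07 for Tnp1, 0.0143 for Prm1 and 0.0477 for Prm2, and Tnp2 stayed at 0.077. Without WT replicate 1, edgeR called all 4 lower, against 12.5% of all genes in that fit. The difference between these lists was not tested. Of the 12 markers of elongating spermatids, which include these 4 genes, 7 had negative and 5 positive estimates, with a median of -0.10. The 4 Tnp and Prm genes were all negative and weigh on that median. Outside them the estimates were Akap4 0.30, Cabyr 0.23, Spem1 0.13, Oaz3 0.11, Smcp 0.10, Hspa1l -0.04, Gapdhs -0.165 and Tssk6 -0.29. The part of these markers in the fiber gene values was not tested.

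**Figure D5:**
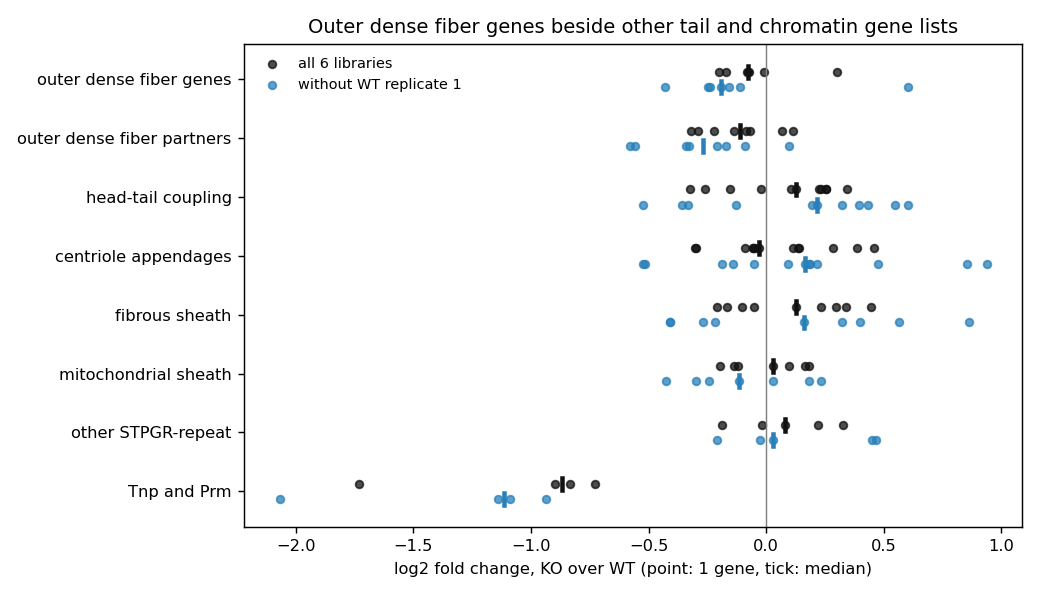
Log2 fold change, KO over WT, of the tested genes of each list (points) and the list's median (tick), with all 6 libraries and without WT replicate 1. The outer dense fiber genes lie between -0.20 and 0.30 with all libraries, and the Tnp and Prm genes at or below -0.73.

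Over the 6 libraries, the levels of other genes were set against each member, as a description of how each pattern is shared. Among 8758 genes averaging 10 CPM or more, the closest to Odf1 were 1700092M07Rik and Urod (r = 0.998 each), and 378 genes had r above 0.95. For Odf2l the closest were 2900092C05Rik and the centriole gene Cep83 (r = 1.00 each), and 1232 genes had r above 0.95. Odf1 and Odf2l thus carried the 2 patterns in which WT replicate 1 stood opposite WT replicates 2 and 3. The closest to Odf2 were Hcfc1r1 and Mllt11 (r = 0.987 each), with 28 genes above 0.95, and the closest to Odf4 were Cit (0.992) and Usp2 (0.991). Odf3 was closest to Bean1 (0.966) and Cfap77 (0.961), Odf3l1 to Kctd7 (0.974) and Pax5 (0.939), and Odf3b to Mdh2 (0.994) and Get1 (0.987). These r values share the same 6 libraries and carry no p.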

How the data were processed

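RNA of 3 Ccer1-/- and 3 Ccer1+/+ testes was analysed, and the 5 sperm Hi-C samples were not analysed here. The authors deposited estimated counts per Ensembl gene (expected counts), with about 10% of values not whole and no scaling between libraries. Reads had been cleaned with fastp 0.18.0, per the submitters' notes, which also list Bowtie2 2.2.8, StringTie 1.3.1, HISAT2 with no version, and GRCm38 (mm10). For the counting program and strand use, the sources used here give nothing.

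The analysis ran in R 4.3.3 on rounded values. Filtering with edgeR 4.0.16 (filterByExpr, minimum count 10, minimum total 15) retained 15139 of 22259 genes. After TMM scaling, the genotypes were compared by the two-sided quasi-likelihood F test of edgeR (robust settings, no covariate), with Benjamini-Hochberg adjustment over all genes tested. DESeq2 1.42.0 was an alternative test. Standard errors were derived from the F statistic. The alternatives were other scalings, filters and thresholds, a replicate block, a GC and length curve, and each library left out. Ratios were compared by exact permutation with SciPy. Symbols were found for 20314 genes by Ensembl ID, and 2106 symbols were updated through RefSeq synonyms. GC content and length were available for 95.5% of tested genes (longest coding transcript, gencode M1). The counting intervals cover counting error only. The procedure was run on simulated counts with a single dispersion. These held no split among libraries such as that of WT replicate 1, so they could not show its effect on the calls.

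All 8 Odf genes were named, together with Ccer1, the Tnp and Prm genes, the 3 genes of each other list with the smallest p, and the 2 genes with the closest pattern to each member. Spermatocyte and elongating spermatid markers were named outside this rule. The members and lists were chosen with earlier results of these data known.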

Additional observations from a re-analysis of the deposited data

How the results depend on the processing

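No call on a fiber gene changed under other scalings, other filters, DESeq2, or leaving out any library but WT replicate 1. Leave-one-out counts of fiber genes called ran from 0 to 2, and of all genes called from 1 to 3337 (1414 higher, 1923 lower), in each case with WT replicate 1 left out as the upper end; the cause was not tested. Over all genes, DESeq2 called 5, the GC and length curve left 2 and the same with the replicate block 4, and an unadjusted p under 0.05 with a fold change over 1.5 gave 179 (124 higher, 55 lower), none of them a fiber gene. The labels number replicates in both genotypes but name no pairs, and the main fit did not take the numbers as pairs. Same-numbered libraries deviated together at r = 0.065, 0.353 and 0.471, and unlike-numbered ones at -0.452 to 0.27. Of 3 KO libraries, 2 were closest to their own number, so a structure shared by number was not excluded. With the replicate block 0 fiber genes and 1 gene were called.

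Some estimates turned sign. Odf2 was 0.027 with library totals, where the median of all genes was 0.072 in place of 0.039, and 0.035 against WT replicate 1 alone, and ran from -0.112 to 0.009 without each replicate in turn, turning without WT replicate 3. Odf3 was 0.021 and Odf3b 0.082 with the GC and length curve removed, and 0.031 and 0.083 with the replicate block added. Against WT replicate 1 alone, chosen after the data were seen, Odf1 was 0.167, Odf2l -0.253, Odf3b 0.092 and Odf4 0.01. Odf3l1 was negative in each refit, from -0.28 to -0.14. The within-library difference from Odf1, without each replicate in turn, ran from -0.01 to 0.32 for Odf2, -0.06 to 0.272 for Odf3 and -0.092 to 0.247 for Odf4, reversed without WT replicate 2, and against WT replicate 1 alone it was -0.131, -0.256 and -0.156. At counts of 167 to 425, counting error alone gave Odf2l a spread of 5.81% in KO and 6.15% in WT libraries, and 3 libraries per genotype limit all intervals.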
